A study of Homo sapiens with 6 samples.

Results

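The 36 genes described here are those of the NF-kappaB transcription factors, of their inhibitors, and inflammatory, signalling and survival genes, many but not all of them known targets. They were taken from a list of gene symbols that was chosen with earlier results of these data known. All 36 of 36 were found among the 20263 genes of the deposited count table. RNA sequencing had been done on total RNA of cells labelled LNCaP, an established human prostate cancer line. Per the labels, 3 libraries came from cells with an empty vector and 3 from cells with a LINC01518 overexpression vector, LINC01518 being a long non-coding RNA. The series' design text says that a vector was transfected and gives its insert as MEG3, which is also a long non-coding RNA. The titles name LINC01518, and the sample labels are followed here. The labels give no age of culture, no time after transfection and no word on separate cultures, so that p-values here cover only library-to-library spread, which may be technical. The inserted RNA was not analysed here, so its level was not checked.

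NF-kappaB is a family of dimeric transcription factors that IkappaB proteins hold inactive in the cytoplasm. Tumour necrosis factor, interleukins and microbial products activate the IKK kinase complex, which marks the IkappaB proteins for degradation and lets the dimers enter the nucleus. There they induce chemokines, cytokines, adhesion molecules and survival genes, and also genes of their own inhibitors, which close a negative feedback loop. In epithelial cancers, those of the prostate among them, the pathway has been studied for its part in inflammation, survival and therapy resistance.

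The labelled cell identity was only in part borne out by the defining markers, and the libraries were similar in depth. Of 12 prostate luminal markers, KLK3, KLK2, TMPRSS2, FOLH1 and STEAP1 had 0 counts in every library, whereas KRT8, a keratin gene of luminal epithelium, had 1363 ± 62.1 CPM in the empty vector libraries and 1670 ± 46.2 CPM with the LINC01518 vector (SD, n = 3 each, adjusted p = 0.0187 by edgeR). CPM are counts scaled to the library size, here by the TMM method. Of the 12, 6 had too few counts for the test below, STEAP2 among them with at most 4 counts in any library. KRT8 and KRT18 (995 ± 76.3 and 1078 ± 45.5 CPM) were also in a list of 5 epithelial markers. In that list KRT19 had 0 counts in every library, EPCAM 9 to 23 counts and CDH1 64 to 94 counts per library. Library totals lay between 38161544 and 42553688 counts, and 0 counts in a library are compatible with up to 3, or 0.0703 to 0.0794 CPM depending on the library, for counting error only. PTPRC, LYZ, CD3E, MS4A1 and TYROBP, defining markers of immune cells, had 0 counts in all 6 libraries. The 15 immune markers summed to 38.5 to 40.2 CPM in the empty vector libraries and 25.4 to 30.2 CPM with overexpression. Without CD68, a lysosomal gene that epithelial lines also express, the other 14 summed to 5.55 to 5.98 and 5.29 to 6.81 CPM. The 9 fibroblast markers, of which LUM, PDGFRA and FAP were at 0 in every library, summed to 112.0 to 122.0 and 154.4 to 158.6 CPM. COL1A1 (82.4 ± 3.64 and 114.2 ± 1.448 CPM) and PDGFRB (29.7 ± 1.75 and 36.8 ± 1.67 CPM) made up most of that sum, and COL1A2 had at most 2 counts in any library. In bulk RNA, fewer cells of a type and less RNA per cell cannot be told apart, and the part of these markers in the results below was not tested.

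Of the 36 members, 31 had a promoter in a RefSeq-derived table (build GRCh38.p14), and the 250 bases before each start were searched for NF-kappaB binding words on both strands. The start is that of the RefSeq table, which can differ from the first base of the GENCODE gene span: the windows of BCL3, ICAM1 and IL20RB lie inside the spans given below. Those of NFKB1 and TNFAIP3 (span from 137867188) run into the spans at their ends, and both TNFAIP3 matches lie in that stretch. One word was the kappaB consensus and the other, a looser core, was GGNNNTTCC, and matches to the 2 words can overlap. Of the 31 promoters, 15 (48.4%) held the consensus, against 9.57% of 27305 promoters of the same length, and 19 (61.3%) held the looser core, against 17.1%. A match is a description of the letters and shows no binding. The promoters of the 4 members that passed the test below, NFKB1, ICAM1, BCL3 and IL20RB, are printed with those of TNFAIP3, which missed it narrowly, and CXCL1, a classical target with nearly no RNA in these cells. Capitals mark matches to either word, and each window reads 5′ to 3′ on the strand of its gene. NFKB1 lies at chr4:102501109-102501358 (plus strand), ICAM1 at chr19:10270870-10271119 (plus strand) and BCL3 at chr19:44748458-44748707 (plus strand). IL20RB lies at chr3:136957733-136957982 (plus strand), TNFAIP3 at chr6:137867009-137867258 (plus strand) and CXCL1 at chr4:73869143-73869392 (plus strand).
NFKB1: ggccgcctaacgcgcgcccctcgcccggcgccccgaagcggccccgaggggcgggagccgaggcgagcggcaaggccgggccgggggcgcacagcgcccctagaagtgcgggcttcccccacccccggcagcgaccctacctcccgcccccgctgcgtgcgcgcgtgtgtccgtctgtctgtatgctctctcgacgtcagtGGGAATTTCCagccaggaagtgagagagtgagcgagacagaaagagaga
ICAM1: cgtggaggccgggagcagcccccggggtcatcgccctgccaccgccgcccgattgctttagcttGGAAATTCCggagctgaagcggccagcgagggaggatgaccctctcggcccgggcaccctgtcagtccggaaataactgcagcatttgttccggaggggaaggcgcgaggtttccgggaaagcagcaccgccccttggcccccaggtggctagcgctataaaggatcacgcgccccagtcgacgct
BCL3: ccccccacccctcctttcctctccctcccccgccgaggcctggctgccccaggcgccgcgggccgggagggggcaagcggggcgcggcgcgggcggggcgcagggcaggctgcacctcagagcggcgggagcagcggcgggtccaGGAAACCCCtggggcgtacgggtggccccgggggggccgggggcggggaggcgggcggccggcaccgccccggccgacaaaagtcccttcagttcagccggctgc
IL20RB: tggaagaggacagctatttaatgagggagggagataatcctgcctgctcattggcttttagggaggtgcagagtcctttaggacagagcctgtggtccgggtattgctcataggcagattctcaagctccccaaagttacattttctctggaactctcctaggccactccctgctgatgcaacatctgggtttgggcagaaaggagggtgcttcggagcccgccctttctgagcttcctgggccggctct
TNFAIP3: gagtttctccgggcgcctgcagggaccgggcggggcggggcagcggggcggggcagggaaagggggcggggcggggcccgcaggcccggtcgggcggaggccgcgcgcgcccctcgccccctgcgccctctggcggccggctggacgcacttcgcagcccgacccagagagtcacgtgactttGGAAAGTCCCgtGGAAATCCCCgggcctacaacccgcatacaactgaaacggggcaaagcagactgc
CXCL1: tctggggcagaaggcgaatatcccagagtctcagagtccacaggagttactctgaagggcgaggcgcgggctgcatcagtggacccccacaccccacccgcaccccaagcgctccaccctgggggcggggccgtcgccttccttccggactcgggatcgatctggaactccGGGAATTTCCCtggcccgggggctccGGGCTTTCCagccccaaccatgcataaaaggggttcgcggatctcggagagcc
In these windows the match of NFKB1 lay 49 to 40 bases before the start and that of ICAM1 186 to 178 bases before it. TNFAIP3 had its matches at 67 to 58 and 55 to 46 bases, BCL3 at 105 to 97 bases, and IL20RB had 0 matches to either word. CXCL1 held the consensus at 79 to 69 bases and the looser core again at 53 to 45 bases. Thus 3 of the 4 members that passed the test and 5 of the 7 that were too low to test had a match to either word. Of all 31, 20 did, against 21.8% of the 27305 promoters. The consensus was held by 1 of the 4 that passed, NFKB1, and by 12 of the 24 tested members with a promoter in the table.

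The question put to these genes was which of them differed between the vectors. ICAM1, the gene of an adhesion molecule for leukocytes, fell 1.36-fold, IL20RB, a subunit gene of the receptors for interleukins of the IL-20 family, fell 1.75-fold, and BCL3, the gene of a nuclear IkappaB protein, fell 1.26-fold. NFKB1, which encodes the p105 precursor of the p50 subunit, rose 1.30-fold. The other members that were tested did not pass, and most of the chemokine genes had few or no counts in either group. All fold changes are overexpression against empty vector.

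A total of 29 members had enough counts to be tested with edgeR's quasi-likelihood test over 13543 genes, and 4 had a Benjamini-Hochberg adjusted p under 0.05, 1 higher and 3 lower. Over all genes tested, 5.6% passed, 3.57% higher and 2.03% lower. The members and the pathway lists below were chosen with earlier results of these data known. Their counts beside the shares of all genes are therefore a description and not a test. At an unadjusted p under 0.05 there were 8 members, 2 higher and 6 lower, against 23.6% of all genes (12.3% higher and 11.4% lower). The groups did not overlap in 9 of the 29, 3 higher and 6 lower, which is close to the 31.4% of all genes tested (15.9% higher and 15.5% lower). Of the 29, 18 had a negative log2 fold change, against 50.8% of all genes. The median log2 fold change of the 29 was -0.11, beside -0.0035 over all genes tested, and the median size of the change regardless of sign was 0.17, beside 0.13. With library size as the only scaling, 20 of the 29 were negative, NFKB2 and TNIP1 having changed sign, and the median of all genes was -0.036. On the deposited TPM, which give levels per gene length, limma-trend called 2 members, ICAM1 and IL20RB, with either pseudocount, 1 or 0.1 (1.62% and 1.66% of all genes).

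The number of members called is read beside the share of all genes called in the same fit. DESeq2 called 5 of the 29 (9.72% of all genes), and limma-voom (5.52%), library size only (5.38%) and edgeR without a count filter (4.85%) called the same 4 as above. A replicate block left ICAM1 and IL20RB (1.71%). Without empty vector replicate 1, 5 members were called, TNIP2 in addition (3.02%), and without replicate 2 or 3 of that group 3 were called (2.03% and 3.35%), BCL3 being lost. Without overexpression replicate 2, 3 were called (1.73%), and without replicate 1 or 3 of that group only ICAM1 and IL20RB were (1.7% and 1.41%).

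**Figure D1:**
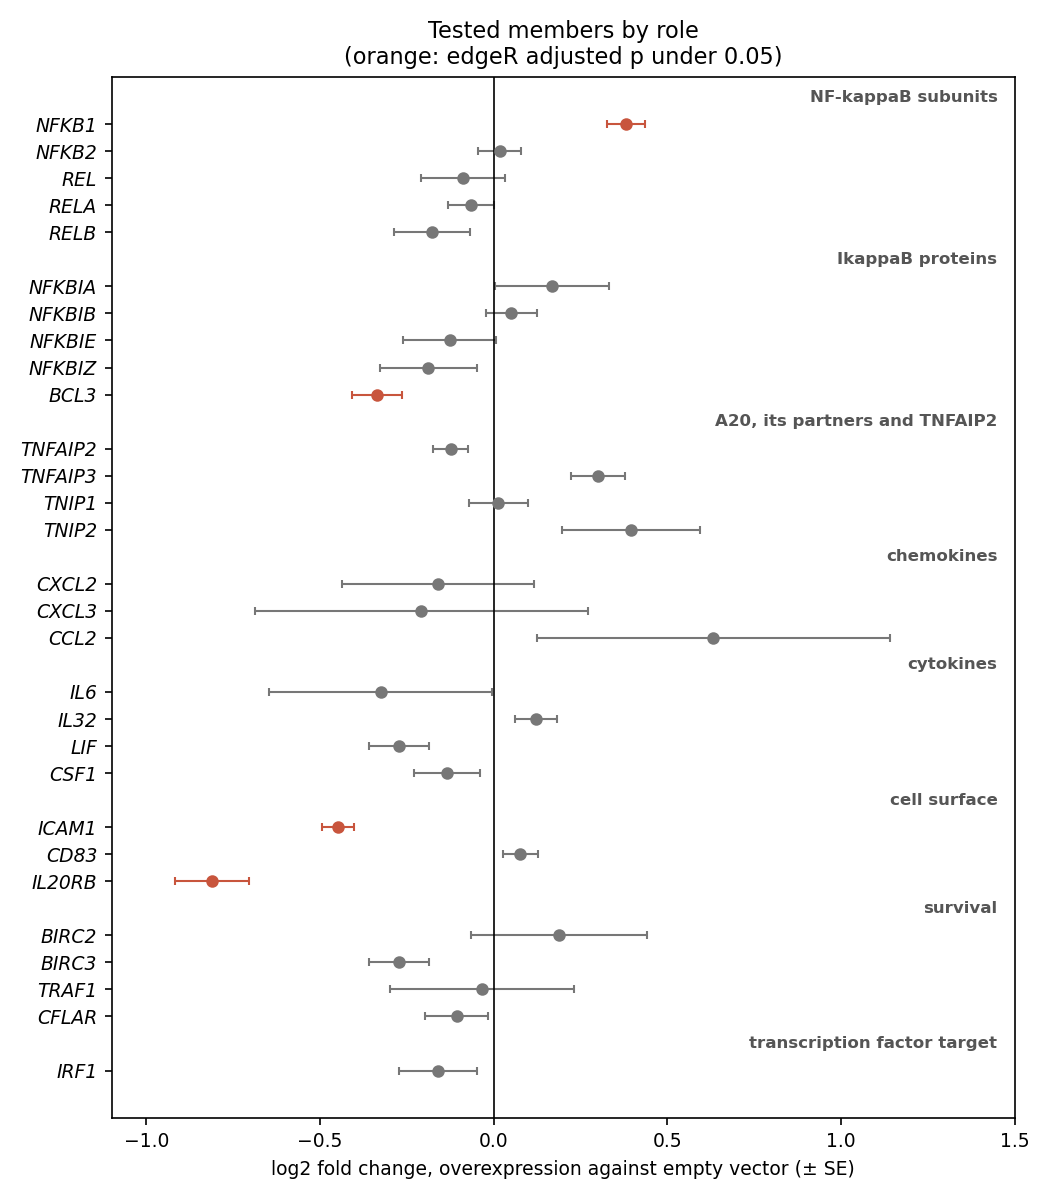
Log2 fold change of each of the 29 tested members (x axis, overexpression against empty vector; points with SE from edgeR over 3 libraries a group), grouped by role, with orange for an adjusted p under 0.05. NFKB1 lies to the right at 0.38, BCL3, ICAM1 and IL20RB lie to the left at -0.34, -0.45 and -0.81, and the chemokine genes CCL2 and CXCL3 have the widest errors.

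Levels per gene length spanned from none to those of abundant genes. On the deposited TPM, 16 members had a mean above 10 over the 6 libraries, 9 lay between 1 and 10, and 11 were under 1. CD83, a gene of an immunoglobulin-like surface protein best known from dendritic cells, had the highest mean over all 6 libraries, with 148 ± 5.43 TPM with empty vector and 152 ± 5.53 TPM with overexpression. TNFAIP2, a gene induced by tumour necrosis factor, had 155 ± 5.68 and 137 ± 5.97 TPM, so that it was above CD83 on average with empty vector and below it with overexpression, and the libraries of both genes overlapped. IL32, a cytokine gene, came next at 98.9 ± 2.16 and 104.9 ± 1.35 TPM, and its libraries lay below all of those of TNFAIP2 and above all of those of NFKB2. Of the 35 pairs of neighbours in this order, 29 overlapped between libraries, so the order within most of the list was not resolved. The levels that stood apart were those of TNFAIP2 over IL32, IL32 over NFKB2, RELA over ICAM1, NFKBIA over NFKBIB, NFKB1 over CFLAR, and IL6 over CXCL2.

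**Figure D2:**
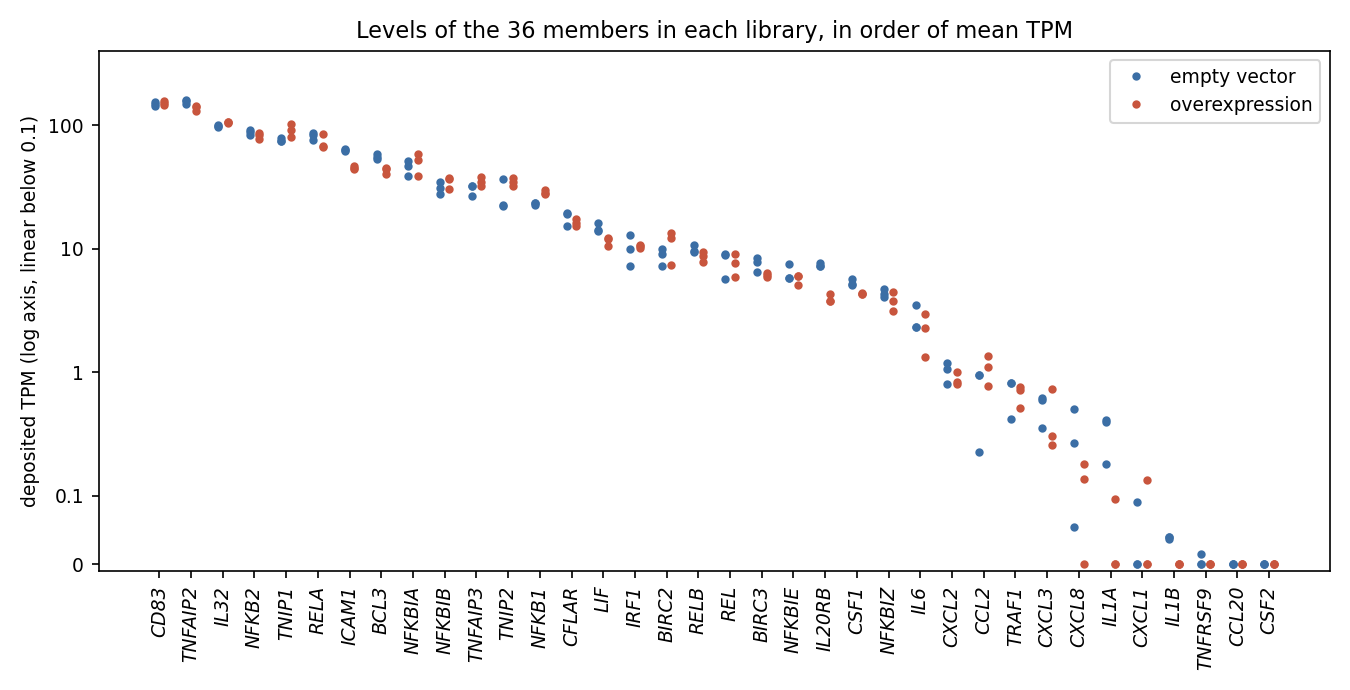
Deposited TPM of the 36 members in each of the 6 libraries (y axis, logarithmic above 0.1 and linear below; blue, empty vector; red, overexpression), in order of the mean. The line of points falls from CD83 at 150.02 TPM on average to CCL20 and CSF2, which were listed at 0 throughout, with a step between IL6 and CXCL2.

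Among the genes of the 5 DNA-binding subunits, NFKB1 rose and the other 4 did not pass the test. NFKB1 (chromosome 4, 102501329 to 102617302, GRCh38) had 42.2, 41.9 and 42.0 CPM in the empty vector libraries and 56.7, 53.0 and 54.6 CPM in the overexpression libraries. All 3 overexpression libraries lay above the tight group of empty vector libraries. The log2 fold change was 0.38 (SE 0.054, adjusted p = 0.0116 by edgeR), and the adjusted p was 0.051 without overexpression replicate 1 and 0.0515 without overexpression replicate 3. NFKB2, whose product is the p100 precursor of the p52 subunit of the non-canonical pathway, had the highest mean TPM of the subunit genes, with libraries that overlapped those of RELA. Its libraries had 120.0, 131.5 and 135 CPM in the empty vector libraries and 134, 134.6 and 123 CPM with overexpression. The groups overlapped fully (log2 fold change 0.02, SE 0.062, adjusted p = 0.896 by edgeR), and the value was -0.09 on TPM. RELA, the main transactivating subunit gene, had a log2 fold change of -0.07 (SE 0.066), REL, the c-Rel gene, one of -0.09 (SE 0.121), and RELB, the partner of p52, one of -0.18 (SE 0.109). Per length, RELA with 81.4 ± 5.07 TPM and NFKB2 with 87.4 ± 3.61 TPM in empty vector libraries were well above NFKB1 (23.2 ± 0.459), RELB (9.92 ± 0.766) and REL (7.91 ± 1.96).

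Of the IkappaB genes, BCL3 fell and the other 4 did not pass. BCL3 (chromosome 19, 44747705 to 44760044), whose product binds p50 and p52 dimers in the nucleus, had 52.4, 55.9 and 60.3 CPM with empty vector. With overexpression it had 45.8, 46.0 and 41.7 CPM. Each overexpression library lay below each empty vector library (log2 fold change -0.34, SE 0.073, adjusted p = 0.0397 by edgeR). The call held without empty vector replicate 1 (adjusted p = 0.0444) and was lost without any 1 of the other 5 libraries, with adjusted p of 0.102 and 0.0819 without empty vector replicates 2 and 3 and of 0.101, 0.0879 and 0.132 without overexpression replicates 1, 2 and 3. NFKBIA, the gene of the main cytoplasmic inhibitor IkappaB-alpha and a rapid NF-kappaB target, spread widely within groups, with 37.3, 29.5 and 36.2 CPM against 45.2, 40.0 and 30.3 CPM. The groups overlapped, since overexpression replicate 3 fell among the empty vector libraries, and the log2 fold change was 0.17 (SE 0.163, adjusted p = 0.583 by edgeR). NFKBIZ, the gene of the nuclear inhibitor-like protein IkappaB-zeta, had 8.20, 8.30 and 8.18 CPM with empty vector against 8.81, 6.63 and 6.19 CPM with overexpression. Overexpression replicate 1 was thus the highest of its group for both NFKBIA and NFKBIZ. NFKBIE and NFKBIB, the genes of IkappaB-epsilon and IkappaB-beta, had log2 fold changes of -0.13 (SE 0.134) and 0.05 (SE 0.073). NFKBIB overlaps SIRT2 on the other strand (1410 to 1611 counts per library), and without a stated strand setting their reads cannot be told apart.

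The feedback genes around A20 had 0 of 4 members past the edgeR threshold, with 2 at an unadjusted p under 0.05, and DESeq2 called 1 of them. TNFAIP3, which encodes the ubiquitin-editing enzyme A20, an inhibitor of signalling to IKK, had 47.7, 50.4 and 43.3 CPM with empty vector. It had 55.3, 62.5 and 56.5 CPM with overexpression, so that the groups did not overlap. The log2 fold change was 0.30 (SE 0.077), with an adjusted p = 0.0631 by edgeR and a DESeq2 adjusted p = 0.015, a rule by which DESeq2 called 9.72% of all genes. On TPM with a pseudocount of 1 the log2 fold change was 0.20 (limma-trend adjusted p = 0.272). The edgeR adjusted p was 0.0815 with a replicate block and 0.0897 to 0.169 in the 6 fits without 1 library. TNFAIP2 is grouped here by its induction and not as an A20 partner, and had 193, 209 and 214 CPM against 189.8, 193 and 183 CPM. Its groups lay apart by a narrow gap, 193.3 against 192.5 CPM, with a log2 fold change of -0.12 (SE 0.051, adjusted p = 0.194 by edgeR). TNIP2, the gene of an A20-binding protein, had 35.3 CPM in empty vector replicate 1, within the range of the overexpression libraries (32.2 to 38.1 CPM), and 21.7 and 23.0 CPM in the other 2. Its log2 fold change was 0.40 (SE 0.199, adjusted p = 0.294 by edgeR) and became 0.65 (adjusted p = 0.0262) without empty vector replicate 1. TNIP1, another A20-binding protein gene, had a log2 fold change of 0.01 on counts (SE 0.086) and 0.26 on TPM (limma-trend adjusted p = 0.164).

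**Figure D3:**
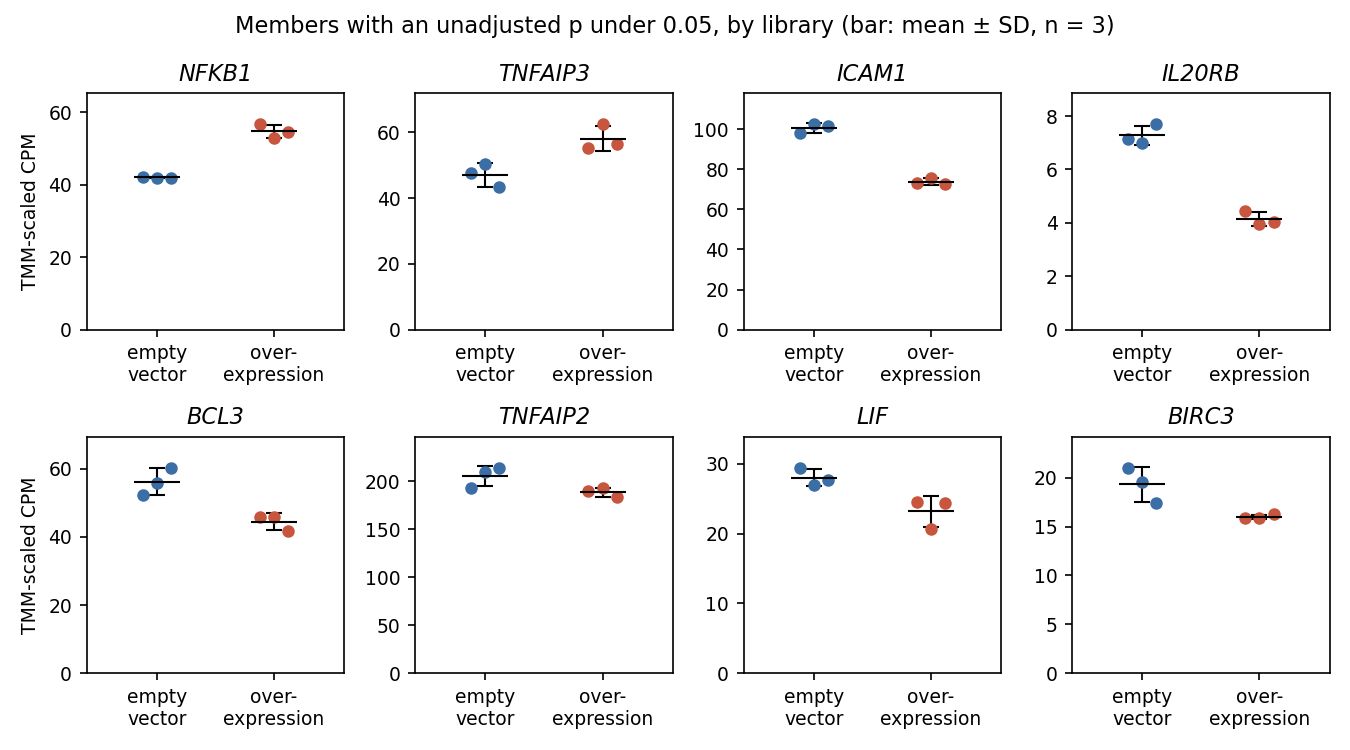
TMM-scaled CPM (y axes from 0) of the 8 members with an unadjusted p under 0.05, 1 panel each, with 3 points per group and bars for the mean and SD. NFKB1 and TNFAIP3 lie higher with overexpression and the other 6 lower, with the widest gap between groups in IL20RB and ICAM1 and the narrowest in TNFAIP2.

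Of the 4 surface protein genes, 2 fell, 1 did not pass and 1 was too low to test. ICAM1 (chromosome 19, 10270835 to 10286615) had 97.9, 102.4 and 101.3 CPM in the empty vector libraries and 73.0, 75.7 and 72.5 CPM with overexpression. The groups were far apart in relation to their spread, at 100.6 ± 2.35 and 73.7 ± 1.69 CPM (SD, n = 3 each). The log2 fold change was -0.45 (SE 0.047, adjusted p = 0.00443 by edgeR), and the call held in each of the 6 fits without 1 library (adjusted p 0.0107 to 0.0243). IL20RB (chromosome 3, 136946230 to 137011085), from a lower level, had 7.15, 6.99 and 7.69 CPM with empty vector. With overexpression it had 4.45, 3.96 and 4.02 CPM, and all 3 lay below every empty vector library. Its log2 fold change was -0.81 (SE 0.107, adjusted p = 0.00935 by edgeR), with adjusted p of 0.0275 to 0.0458 in the 6 fits without 1 library. Its annotated span overlaps NCK1 on the same strand, which had 1201 to 1418 counts per library. CD83 had 186, 177 and 190.2 CPM against 202.4, 185 and 195 CPM, overlapping groups with a log2 fold change of 0.08 (SE 0.051, adjusted p = 0.409 by edgeR). TNFRSF9, the gene of the costimulatory receptor 4-1BB, had 2 counts in 1 empty vector library and 0 in the other 5 libraries.

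The 6 chemokine genes, whose products attract leukocytes, were at the low end of the list in both groups. CCL20 had 0 counts in every library, which allowed up to 0.0703 to 0.0794 CPM. CXCL1 had 2, 0 and 0 counts with empty vector and 0, 3 and 0 with overexpression. CXCL8, the interleukin-8 gene, had 10, 2 and 7 counts against 4, 4 and 0. The ratio of its summed counts, empty vector over overexpression, was 2.31, with an exact 95% interval of 0.966 to 6.11 that covers counting error only and includes a ratio of 1. The 3 tested chemokine genes did not pass, and their groups overlapped. CXCL2, with the highest mean TPM of the 6, had 0.488, 0.657 and 0.748 CPM against 0.524, 0.534 and 0.635 CPM (log2 fold change -0.16, SE 0.276, adjusted p = 0.765 by edgeR). CXCL3 had 7 to 16 counts per library and CCL2, the monocyte chemoattractant gene, 4 to 23, with log2 fold changes of -0.21 (SE 0.479) and 0.63 (SE 0.508). CXCL1, CXCL2 and CXCL3 are close paralogs, so reads shared between them could be divided or dropped.

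Among the 7 cytokine genes, 0 passed edgeR and 1, LIF, had an unadjusted p under 0.05. LIF, which encodes leukemia inhibitory factor of the interleukin-6 family, had 29.4, 27.0 and 27.6 CPM in the empty vector libraries and 24.5, 20.6 and 24.4 CPM with overexpression. Its groups did not overlap, with a log2 fold change of -0.27 (SE 0.086, adjusted p = 0.107 by edgeR). IL32, the most abundant cytokine gene per length, had 44.2, 46.4 and 49.1 CPM against 51.8, 50.6 and 49.7 CPM. The groups lay apart by a small gap (log2 fold change 0.12, SE 0.060, adjusted p = 0.267 by edgeR). CSF1, the macrophage colony-stimulating factor gene, had a log2 fold change of -0.14 (SE 0.095) and IL6 one of -0.33 (SE 0.322), the latter from 32 to 88 counts per library. IL1A, the interleukin-1 alpha gene, was below the count filter, with 18, 18 and 8 counts with empty vector and 0, 0 and 4 with overexpression. The groups did not overlap, and the ratio of the summed counts, empty vector over overexpression, was 10.7 (exact 95% interval 3.90 to 41.0, counting error only). In the edgeR fit without a count filter its adjusted p was 0.0878. IL1B, the interleukin-1 beta gene, had 2 counts in each empty vector library and 0 in each overexpression library, all at or under the floor of 3 counts. CSF2, the gene of the granulocyte-macrophage factor, had 0 counts in all 6 libraries.

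The survival genes and IRF1 had 0 of 5 members past edgeR, with 1 at an unadjusted p under 0.05, and 0 called by DESeq2, limma-voom or limma-trend on TPM. BIRC3, the gene of the ubiquitin ligase c-IAP2 and an NF-kappaB target, had 21.0, 19.6 and 17.4 CPM against 15.9, 15.9 and 16.3 CPM. The overexpression libraries were tightly grouped below the empty vector libraries (log2 fold change -0.27, SE 0.086, adjusted p = 0.109 by edgeR). Its neighbour and relative BIRC2, the c-IAP1 gene, had 16.2, 11.4 and 14.8 CPM against 12.6, 13.6 and 22.2 CPM. Overexpression replicate 3 stood above the other 5 libraries, and the log2 fold change of 0.19 (SE 0.254) became -0.11 without it. CFLAR, which encodes the caspase-8 inhibitor c-FLIP, had 16.0, 18.6 and 18.9 CPM against 16.0, 16.1 and 17.5 CPM, with overlapping groups (log2 fold change -0.11, SE 0.091, adjusted p = 0.521 by edgeR). TRAF1, a signalling adaptor gene, was low at 54 to 111 counts per library (log2 fold change -0.03, SE 0.264). IRF1, a transcription factor gene of interferon and NF-kappaB responses, had 10.2, 11.1 and 13.0 CPM against 9.72, 11.0 and 9.87 CPM. Its groups overlapped, and its log2 fold change was -0.16 on counts (SE 0.112, adjusted p = 0.428 by edgeR) and 0.09 on TPM (limma-trend adjusted p = 0.829).

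The wider pathway was read from lists of 48 upstream signalling genes and 50 further target genes, of which 44 and 35 were tested in the same fit. Of the signalling genes, RBCK1 fell and 0 rose (2.03% and 3.57% of all genes). At an unadjusted p under 0.05 there were 6, 1 higher and 5 lower (12.3% and 11.4% of all genes). By that measure the share that was lower was no larger than among all genes, and the share that was higher was smaller. The groups did not overlap in 9 of the 44, 0 higher and 9 lower (15.9% and 15.5% of all genes). RBCK1, which encodes the HOIL-1 subunit of the linear ubiquitin ligase that feeds into IKK, had 91.3, 95.5 and 100.1 CPM in the empty vector libraries and 78.7, 81.8 and 78.5 CPM with overexpression. The groups did not overlap (log2 fold change -0.26, SE 0.052, adjusted p = 0.0314 by edgeR). The call held without empty vector replicate 1 (adjusted p = 0.0367) and was lost without empty vector replicate 2 (0.089) or 3 (0.0662) and without overexpression replicate 1 (0.104), 2 (0.0779) or 3 (0.115). The 3 genes of the IKK complex did not pass, with log2 fold changes of -0.17 for CHUK (SE 0.060, adjusted p = 0.139 by edgeR), 0.06 for IKBKB (SE 0.065) and 0.19 for IKBKG (SE 0.108). TNFRSF1A, the gene of the main tumour necrosis factor receptor, had 108.3 ± 4.37 CPM in the empty vector libraries and 96.2 ± 1.07 CPM in the overexpression libraries (log2 fold change -0.17, SE 0.048, adjusted p = 0.0807 by edgeR). The receptor genes IL1R1, CD40, TLR2 and TLR5 were too low to test. The median log2 fold change of the 44 was -0.047.

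Of the 35 further targets tested, 2 fell and 0 rose (2.03% and 3.57% of all genes), so that 5.71% were called, close to the 5.6% of all genes. At an unadjusted p under 0.05 there were 13, 3 higher and 10 lower (12.3% and 11.4% of all genes). The groups did not overlap in 17, 5 higher and 12 lower (15.9% and 15.5% of all genes). GADD45B, a stress and growth arrest gene, had 22.8, 23.3 and 19.4 CPM in the empty vector libraries and 13.7, 15.1 and 14.8 CPM in the overexpression libraries (log2 fold change -0.58, SE 0.094, adjusted p = 0.0159 by edgeR). IER3, an immediate early gene of cell survival, had 83.3, 75.2 and 82.0 CPM against 61.7, 60.6 and 62.4 CPM (log2 fold change -0.38, SE 0.056, adjusted p = 0.0127 by edgeR). In both genes every overexpression library lay below every empty vector library. Without 1 library, GADD45B was not called without empty vector replicate 2 (adjusted p = 0.0578) or overexpression replicate 1 (0.0621) or 3 (0.0583), and IER3 was not called without overexpression replicate 2 (0.0509) or 3 (0.0515). The median log2 fold change of the 35 was -0.14. Other fits differed in number and direction. DESeq2 called 9 further targets, 3 higher (MARCKSL1, PTGS2 and SLC2A6) and 6 lower (9.72% of all genes). With library size as the only scaling, which called 346 genes higher and 382 lower over the whole table (5.38%), edgeR called 5 further targets, all lower. The chemokine genes CXCL5, CXCL6, CXCL10 and CX3CL1, the adhesion genes VCAM1 and SELE, and LTB, BCL2A1 and TLR2 had 0 counts in all 6 libraries, 9 of the 50 listed.

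**Figure D4:**
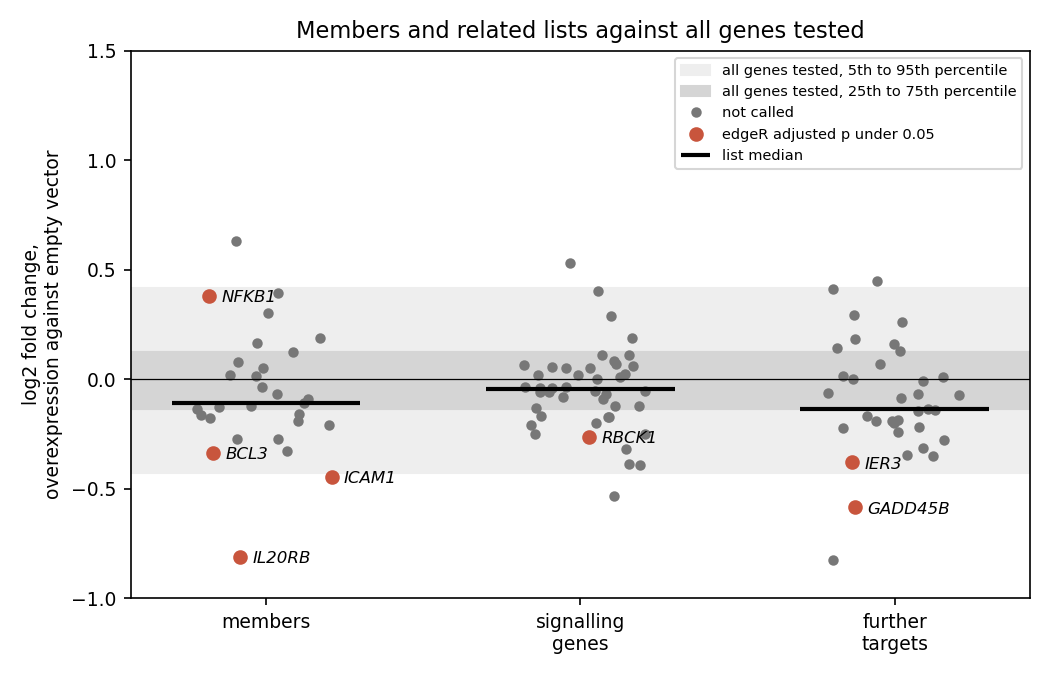
Log2 fold changes (y axis, overexpression against empty vector) of the tested members, signalling genes and further targets, 1 point per gene, spread sideways for legibility, with orange for an edgeR adjusted p under 0.05 and a black bar for the list median. Grey bands give the percentiles of all 13543 genes tested, from -0.43 to 0.42 for the 5th to 95th, and the list medians of -0.11, -0.047 and -0.14 lie inside or just below the inner band.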

How the data were processed

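The submitters' processing notes name Trimmomatic 0.36, HISAT2, Subread 1.5.1 with featureCounts, DESeq and build GRCh38. Counts per gene were deposited as unnormalized whole numbers. The deposited TPM came from a tool not given in the sources used here, as were the annotation release and the strand setting. Symbols were matched for 20148 of 20263 genes, and positions are from GENCODE release 29.

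Counts were tested in R 4.3.3 with edgeR 4.0.16 (filterByExpr with a minimum count of 10 and a minimum total of 15, TMM, robust quasi-likelihood F test, group as the only term, all 6 libraries). P-values were adjusted by Benjamini-Hochberg over all 13543 genes tested and called under 0.05. The SE is the size of the log2 fold change divided by the square root of F. Alternatives used limma 3.58.1, also on log2 TPM with a pseudocount of 1 or 0.1, and DESeq2 1.42.0, other scalings, other filters, a replicate block, leaving out mitochondrial and ribosomal protein genes, and leaving out each library. The fits were tested on simulated data, where edgeR called 8% of 1.25-fold, 58% of 1.5-fold and 84% of 2-fold changes (50 genes each). Not passing thus does not show that a gene was unchanged. The simulation left 13343 of 13543 genes unchanged, and its rates depend on that share, so they need not be those of these data. Named in full were members with an unadjusted p under 0.05, the most abundant member of each role and called genes of the pathway lists. The members and lists were chosen with earlier results of these data known. One marker gene is not reported here. Total counts limit precision as given with the report's first values.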

Additional observations from a re-analysis of the deposited data

How the results depend on the processing

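The number of genes called over the whole table was 759 and became 1316 with DESeq2, 219 and 225 with limma-trend on TPM with a pseudocount of 1 and 0.1, and 232 with a replicate block. It was 193 to 458 without 1 library. Scaled by library size only, edgeR called 346 genes higher and 382 lower, against 484 and 275, and limma-trend on TPM with a pseudocount of 1 called 100 higher and 119 lower. The number of members called was 4 and became 2, ICAM1 and IL20RB, on TPM with either pseudocount and also 2 with the replicate block, and 2 to 5 without 1 library. The replicate block gave an adjusted p of 0.0502 for NFKB1 and 0.104 for BCL3. Of the signalling genes, 1 was called, against 2 with library size only, 2 with DESeq2, 0 with limma-trend on TPM with either pseudocount (7 at an unadjusted p under 0.05), 0 with the replicate block in edgeR (5 at an unadjusted p under 0.05) and 0 to 2 without 1 library. Of the further targets, 2 were called, against 5 with library size only, 9 with DESeq2, 1 with the replicate block and 0 to 3 without 1 library (0 without overexpression replicate 3, with 13 at an unadjusted p under 0.05). A fit with fewer libraries or a further term has fewer degrees of freedom, and the other causes were not tested. For the 17 genes named in full, 260 of 288 values under an alternative kept their side of the threshold, 27 lost and 1 gained a call, and 0 called values changed sign. Many of these values belong to genes not called in the main fit, which could not lose a call. ICAM1 and IL20RB were called in 11 of 11 other fits on all libraries and 6 of 6 without 1 library. For NFKB1 these were 8 and 4, for BCL3 8 and 1, for RBCK1 8 and 1, for IER3 11 and 4, and for GADD45B 10 and 3. By the labels, same-numbered replicates share only a number. Deviations of same-numbered libraries from their group means correlated at 0.0367, 0.0547 and 0.0449 across genes. Other pairs lay between -0.0645 and 0.0189, so that each library correlated best with its own number. Whether same-numbered libraries share a batch was not tested. Depth limits the chemokine genes and IL1A, IL1B, CSF2 and TNFRSF9, all of which had at most 29 counts per library.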

Other observations

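Counts and deposited TPM differed for some members. TNIP1 had 98.8, 90.1 and 78.4 CPM in the empty vector libraries and 84.9, 90.8 and 94.0 CPM with overexpression. Its TPM were 74.9, 74.4 and 78.0 against 80.2, 102.0 and 91.5, and did not overlap between groups. IRF1 had 7.17 TPM in empty vector replicate 2 and 12.9 in replicate 3, where its CPM were 11.1 and 13.0. The AC116366.3 gene, which overlaps IRF1 on the opposite strand, had 0 to 89 counts per library. The cause of these differences was not tested.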
